A study of Homo sapiens with 2 samples.

Results

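Mitotic cells were examined in CHLA9 and TC71, established Ewing sarcoma cell lines that carry the EWSR1-FLI1 fusion. The cells were chosen by their own counts: in each library, the 10% of kept cells with the highest share of UMIs (unique molecular identifiers, each standing for 1 captured RNA molecule) from CCNB1, CDC20, PLK1, AURKA, CENPE, CENPF, CCNB2 and HMMR were taken as mitotic. A cell was kept with at least 5000 UMIs, at least 2000 detected genes and at most 15% of its UMIs from mitochondrial genes. This gave 452 mitotic cells among 4524 kept cells of CHLA9 and 173 among 1729 of TC71, or 625 of 6253 in all, and each set was compared with the other kept cells of its own library, 4072 and 1556 cells. The study profiled these lines by single-cell RNA-sequencing with a 10x Chromium 3′ kit, 1 library for each line, to place Ewing sarcoma cells in a developmental context. The medium of CHLA9 was IMDM with serum and a supplement of insulin, transferrin and selenite, and that of TC71 was RPMI with serum. Both media held antibiotics, the labels name no drug treatment or sort, and cells were harvested with trypsin below full confluence.

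Cells enter mitosis when cyclin B with CDK1 escapes inhibition, and they leave it when the anaphase-promoting complex, a ubiquitin ligase activated by CDC20, marks cyclin B and securin for destruction. Messages of many mitotic genes are repressed in G1 by the DREAM complex and are switched on in G2 by B-MYB, MuvB and FOXM1, which act through a short promoter element called CHR, often near CCAAT boxes bound by NF-Y. Messages for replication proteins and histones belong to late G1 and S phase, and many of those for replication proteins are driven by E2F. RNA counts cannot tell late G2 from mitosis, so "mitotic" is used below as the name of the rule.

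Promoter stretches are shown for mitotic genes that hold a CHR match close to the start of transcription and for E2F1, a gene at the opposite end of the comparison. Each stretch is the 100 bases before the RefSeq start on GRCh38.p14, written 5′ to 3′ on the strand of the gene. Capitals mark matches to motifs on either strand. The CHR motif was searched as TTTGAA and in its form TTCGAA, the NF-Y box as CCAAT, and the E2F motif as TTTCGCGC, TTTGGCGC, TTTCCCGC and TTTGCCGC. None of these motifs contains another on either strand. A match is a description of letters and not of binding. CDC20, PLK1 and CCNB2 were among the genes that chose the cells, at chr1:43358881-43358980 (plus strand), chr16:23678789-23678888 (plus strand) and chr15:59105046-59105145 (plus strand).
CDC20: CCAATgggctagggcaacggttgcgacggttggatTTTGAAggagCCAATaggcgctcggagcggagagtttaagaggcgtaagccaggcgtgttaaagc
PLK1: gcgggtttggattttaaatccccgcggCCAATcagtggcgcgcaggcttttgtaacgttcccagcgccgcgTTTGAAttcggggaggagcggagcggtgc
CCNB2: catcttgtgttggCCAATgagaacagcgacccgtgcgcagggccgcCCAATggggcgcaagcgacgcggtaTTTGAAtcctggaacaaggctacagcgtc
PSRC1, CENPA, PIF1 and DEPDC1 were among the 15 genes with the highest ratios in both lines, at chr1:109283146-109283245 (minus strand), chr2:26785956-26786055 (plus strand), chr15:64825648-64825747 (minus strand) and chr1:68497083-68497182 (minus strand).
PSRC1: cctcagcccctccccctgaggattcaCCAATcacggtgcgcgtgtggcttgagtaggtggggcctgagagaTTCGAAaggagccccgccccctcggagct
CENPA: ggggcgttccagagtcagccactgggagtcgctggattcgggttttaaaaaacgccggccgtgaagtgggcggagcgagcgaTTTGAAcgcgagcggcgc
PIF1: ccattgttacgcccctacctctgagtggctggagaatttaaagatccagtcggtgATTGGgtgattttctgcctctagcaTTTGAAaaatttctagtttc
DEPDC1: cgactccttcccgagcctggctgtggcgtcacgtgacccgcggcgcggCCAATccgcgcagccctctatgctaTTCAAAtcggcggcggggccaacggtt
E2F1, at chr20:33686386-33686485 (minus strand), was among the 10 lowest genes and held 2 E2F matches here and no CHR match. Of the 10 lowest genes, CCNE2, FAM111B, HIST1H4C and WDR76 had no RefSeq entry and were not searched. Of the rest, E2F1 alone had an E2F match in these 100 bases, which is why it is shown. CDC6 had an E2F match 7 bases after the start.
E2F1: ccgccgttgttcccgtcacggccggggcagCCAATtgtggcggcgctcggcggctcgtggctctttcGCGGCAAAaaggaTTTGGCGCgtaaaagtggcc
The CHR match began 29 bases before the start in PLK1, CCNB2 and PSRC1, 27 bases before it in DEPDC1, 20 in PIF1 and 18 in CENPA. In CDC20 it lay 65 bases before the start, between CCAAT boxes at 100 and 55 bases.

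The libraries differed in size and in how many barcodes were usable. CHLA9 held 178489774 UMIs over 5077 barcodes and TC71 75408445 UMIs over 8468 barcodes, of which 5869 had fewer than 5000 UMIs. Mitotic cells contributed 20059760 UMIs in CHLA9 and 7231448 in TC71. Levels are given as CPM, the summed UMIs of a gene per 1000000 summed UMIs of the same cells, and 3 UMIs corresponded to 0.150 and 0.415 CPM in these mitotic cells. The libraries shared 16 barcodes, and 3 of them were kept in both. No doublet caller was run, and doublets are not removed. With 1 library for each line there is no replicate: the values are descriptions without a test, the intervals are exact 95% intervals for counting error alone, and the cells of a library are not independent samples. "Higher" and "lower" are used for genes past 1.5-fold, and a gene was measured in a line when it had at least 10 CPM over the kept cells of that line.

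The 8 genes of the rule are given first, as the values that chose the cells. Their summed level was 6835 CPM in mitotic and 1911 CPM in other cells of CHLA9, and 3684 and 1329 CPM in TC71. The last cell taken in CHLA9 had a score of 5516 CPM and the first left out 5512 CPM, and the corresponding scores in TC71 were 3118 and 3112 CPM, so no gap in the score separated mitotic cells from the rest. AURKA, the kinase of centrosome maturation, had 356 against 75.3 CPM in CHLA9 and 381 against 110 CPM in TC71. CENPE, a kinetochore motor, had 579 against 132 CPM in CHLA9, and in TC71 its log2 ratio was 1.65. CCNB1, the cyclin of the entry kinase, had 821 against 209 CPM in CHLA9 and 494 against 204 CPM in TC71. The narrowest ratio among the 8 was that of CCNB2 in TC71, at 151 against 87.3 CPM. CENPF, a large kinetochore protein, weighed most in the choice: it gave 51.3% of the rule's UMIs in the mitotic cells of CHLA9 and 35.9% in those of TC71. When cells were chosen without CENPF, 349 of 452 (77.2%) and 122 of 173 (70.5%) were the same cells, whereas leaving out any of the other 7 genes kept at least 95.1% in CHLA9 and at least 89.0% in TC71. In cells chosen by the other 7 genes, CENPF was still higher, with log2 ratios of 1.53 (1.52 to 1.55) and 1.28 (1.24 to 1.32).

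The label was set beside 8 mitotic genes outside the rule: TPX2, BUB1, KIF23, DLGAP5, TTK, NUSAP1, ASPM and KIF20A. All 8 were higher in both lines, where 3.48% of measured genes in CHLA9 and 3.61% in TC71 were, with a median log2 ratio of 1.62 in CHLA9 and 1.45 in TC71, and their summed level was 3669 against 1115 CPM and 2752 against 1092 CPM. With every cell thinned to 5000 UMIs, a mitotic cell held a median of 18 UMIs of this list in CHLA9 and another cell 4, and the medians in TC71 were 13 and 4. In CHLA9 385 mitotic cells (85.2%) and in TC71 110 (63.6%) were above the 90th percentile of the other cells, and 3 and 1 were at or below the median of the other cells. If the list itself had chosen the cells, 342 (75.7%) and 116 (67.1%) would have been the same. The chosen cells thus carried mitotic messages that the rule did not count. These genes were counted in the same cells as the rule genes and are not an independent sample. The list was also chosen with earlier results of these data known, so its values are a description and not a test of the label.

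Identity genes of the tumor were present in the mitotic cells at close to the level of the other cells. CD99, the surface antigen used to recognize Ewing sarcoma, had 1009 CPM in mitotic and 1158 CPM in other cells of CHLA9, and 396 and 402 CPM in TC71. Of the 6 identity genes, 5 were measured in CHLA9 and 6 in TC71 and none passed 1.5-fold. Of all measured genes only 3.48% were higher and 2.19% lower in CHLA9, and 3.61% and 0.835% in TC71, so this count says little. Markers of blood, endothelium and epithelium had no measured member in either line, their summed levels stayed between 0.0499 and 1.80 CPM in mitotic cells and between 0.0587 and 2.01 CPM in other cells, and HBB, CD3E, VWF and KRT5 had no UMI in any kept cell. Fibroblast genes were low, with a summed level of 109 CPM in mitotic and 95.9 CPM in other cells of CHLA9 and 26.4 and 24.7 CPM in TC71, and none of their measured members passed 1.5-fold.

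Mitotic cells held more UMIs than other cells. Their median was 45728 UMIs in CHLA9 against 34062 in other cells, a ratio of 1.34, and 42516 against 32709 in TC71, a ratio of 1.30. The quartiles of CHLA9 mitotic cells were 33129 and 52972 UMIs and those of other cells 28801 and 41826. In TC71 they were 33397 and 51057 against 26928 and 39130, so the groups overlapped in both lines. Mitotic cells were most frequent from 50000 to 55000 UMIs in CHLA9, where they were 34.9% of cells, while they were 6.34% of cells from 25000 to 30000 UMIs. The mitochondrial share of UMIs was 6.70% in mitotic and 7.69% in other cells of CHLA9 and 8.93% and 9.06% in TC71, as medians over cells. Without the 5% of cells with the most UMIs in each library the ratio of medians was 1.36 in CHLA9 and 1.20 in TC71, and the part of doublets was not tested further.

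**Figure D1:**
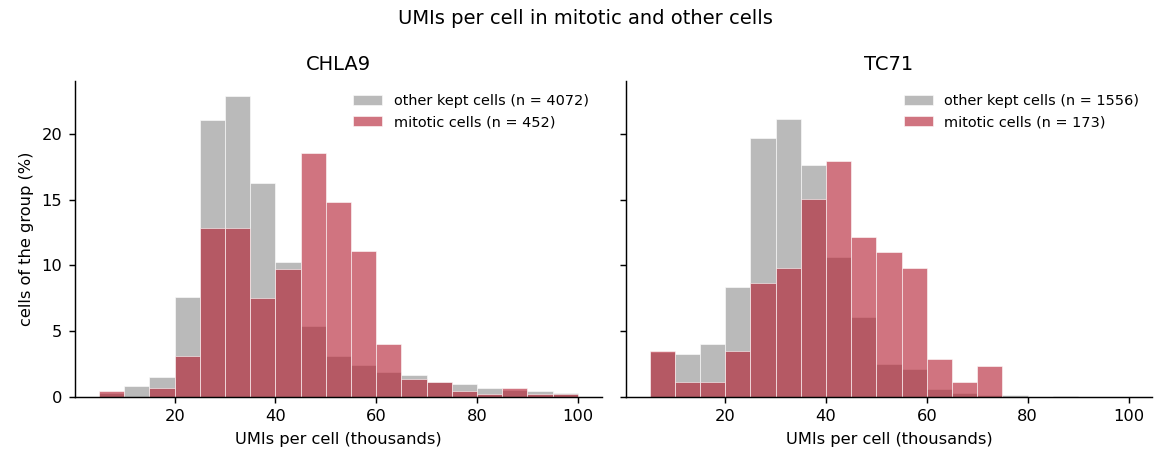
Share of cells (%) in bins of 5000 UMIs for mitotic cells (red) and other kept cells (grey) of each line. The medians are 45728 and 34062 UMIs in CHLA9 and 42516 and 32709 in TC71; the CHLA9 mitotic cells form a lower group around 25000 to 35000 UMIs and an upper one around 45000 to 55000, and 1 mitotic and 38 other CHLA9 cells at or above 100000 UMIs are not drawn.

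Across all other genes the profile was narrow. In CHLA9 300 of 8613 measured genes were higher (3.48%) and 189 lower (2.19%), and in TC71 294 of 8145 were higher (3.61%) and 68 lower (0.835%). Of 7487 genes measured in both lines, 172 were higher in both, which is 66.2% of the CHLA9 genes and 64.7% of the TC71 genes among them, and 47 were lower in both, 31.1% and 79.7%. No gene was past 1.5-fold in opposite directions. Over these genes the log2 ratios of the lines correlated with a Pearson r of 0.773 and a Spearman rho of 0.683, as a description across genes that share their cells. The counts depend on the scale: per cell, without division by the total, the median of all measured genes was at a log2 ratio of 0.24 in CHLA9 and 0.43 in TC71, with 812 genes higher and 96 lower in CHLA9 and 2230 and 26 in TC71. The counts also moved when cells were thinned. Thinning each cell to 5000 UMIs keeps the CPM scale, and moved the median of all measured genes by −0.004 and −0.023. It leaves fewer UMIs for each gene, and gave 429 higher and 307 lower in CHLA9 and 629 and 355 in TC71. The UMI ratio of TC71 also moved, so the cells taken as mitotic were not all the same. Counting error and the change of cells were not told apart, and these larger counts are not read as a broader profile. The ratios below are relative to the total UMIs of the cells, whose median log2 ratio was 0.02 in CHLA9 and 0.09 in TC71.

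**Figure D2:**
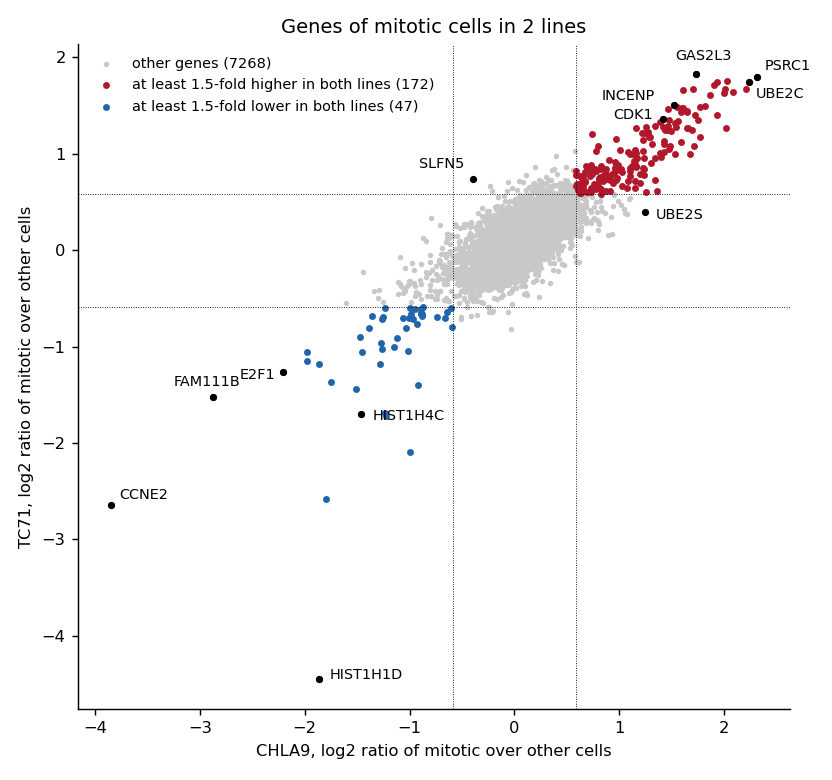
Log2 ratio of mitotic over other cells for 7487 genes in CHLA9 (x axis) and TC71 (y axis), with dotted lines at 1.5-fold. The 172 genes higher in both lines (red) and the 47 lower in both (blue) lie along 1 diagonal, and CCNE2 and HIST1H1D are the farthest below.

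The 15 genes with the highest ratio in both lines were PSRC1, KIF20A, CENPA, UBE2C, GAS2L3, SGO2, KIF14, ARL6IP1, PIF1, ASPM, NEK2, DEPDC1, CCNF, INCENP and KIF18A. Their log2 ratios were 1.52 to 2.32 in CHLA9 and 1.49 to 1.82 in TC71. PSRC1 (ENSG00000134222, chr1:109279556-109283186), a microtubule-associated spindle protein, had 79.1 CPM in mitotic and 15.9 CPM in other cells of CHLA9, a log2 ratio of 2.32 (2.23 to 2.41). In TC71 it had 60.0 and 17.3 CPM, a log2 ratio of 1.79 (1.62 to 1.96). UBE2C (ENSG00000175063, chr20:45812576-45816957), the ubiquitin-conjugating enzyme of the anaphase-promoting complex, had 692 against 147 CPM in CHLA9 and 562 against 168 CPM in TC71. ASPM, which holds microtubule minus ends at spindle poles, had 1295 against 304 CPM and 685 against 219 CPM. PIF1, a DNA helicase of replication forks and telomeres, is not a spindle gene: it had 161 against 34.9 CPM in CHLA9 and 92.7 against 29.2 CPM in TC71. ARL6IP1, a membrane protein that shapes the endoplasmic reticulum, had 460.0 against 141 CPM and 233 against 73.3 CPM.

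Most mitotic kinesins were higher. Of 13 measured mitotic kinesins 12 were higher in CHLA9, with a median log2 ratio of 1.28, and 10 of 12 were higher in TC71, with a median of 1.17. KIF20A, which carries the passenger complex to the central spindle, had 161 against 39.4 CPM in CHLA9 and 81.9 against 24.3 CPM in TC71. KIF14, a motor of cytokinesis, had 315 against 78.2 CPM and 146 against 45.7 CPM. KIF2A, a microtubule depolymerase with roles outside mitosis, stayed within 1.5-fold at log2 ratios of 0.19 and 0.16. KIF22, a chromosome arm motor, was higher in CHLA9 at 0.95 and at 0.57 was just under 1.5-fold in TC71.

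Spindle assembly factors ranged from genes well past 1.5-fold to the augmin genes near a log2 ratio of 0. Of 23 measured members 15 were higher in CHLA9 and 14 of 22 in TC71, with medians of 1.25 and 1.04. TPX2, which targets and activates Aurora A, had 708 against 251 CPM in CHLA9 and 666 against 283 CPM in TC71. DLGAP5, a stabilizer of kinetochore fibers, had 439 against 136 CPM and 360 against 152 CPM. The measured HAUS genes, which encode the augmin complex that nucleates microtubules from microtubules, lay between −0.42 and 0.12 in CHLA9 and between −0.27 and 0.15 in TC71. Tubulins were uneven as well: TUBB4B had 718 against 349 CPM in CHLA9, a log2 ratio of 1.04 (1.02 to 1.07), and 692 against 516 CPM in TC71, a log2 ratio of 0.42 (0.38 to 0.47). TUBA1B, an alpha-tubulin, had 2633 against 2671 CPM and 2601 against 2764 CPM. Of the tubulins and stathmin 2 of 9 were higher in CHLA9 and 0 of 11 in TC71. Of all measured genes 3.48% and 3.61% were, so the count in TC71 says little.

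Genes of chromosome condensation and segregation were higher in part. In the chromosomal passenger complex, 4 of 4 genes were higher in CHLA9 and 3 of 4 in TC71, where BIRC5 (survivin) had 443 against 322 CPM, a log2 ratio of 0.46. INCENP, its scaffold, had 155 against 53.9 CPM in CHLA9 and 104 against 36.7 CPM in TC71. TOP2A, which decatenates sister chromatids, reached 2303 against 675 CPM in CHLA9 and 625 against 223 CPM in TC71. Of condensin and scaffold genes 6 of 10 were higher in each line. The members within 1.5-fold included NCAPD3, NCAPG2 and NCAPH2 of condensin II, at 0.08, 0.39 and −0.23 in CHLA9 and 0.23, 0.22 and −0.17 in TC71.

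Kinetochore genes covered a wide range. Of 31 measured genes 12 were higher and 1 lower in CHLA9, and 8 were higher and none lower in TC71, with medians of 0.37 and 0.23. CENPA, the histone H3 variant of centromeres, had 184 against 47.9 CPM in CHLA9 and 133 against 39.6 CPM in TC71. The scaffold KNL1 was also higher in both, at log2 ratios of 1.39 and 1.33. Members of the constitutive centromere network were mixed: CENPI was higher in both lines at 1.03 and 0.81, CENPL and CENPT were higher in CHLA9 at 0.61 and 0.67, and CENPC was higher in TC71 at 0.72. Its other measured members were within 1.5-fold in both lines, for example CENPU at −0.50 and −0.30, CENPH at −0.02 and −0.03 and CENPP at 0.21 and 0.24. DSN1, of the MIS12 complex, was lower in CHLA9 at −0.74 and at −0.51 in TC71 did not pass 1.5-fold. Among spindle checkpoint genes 5 of 13 and 5 of 12 were higher, namely BUB1, BUB1B, BUB3, TTK and SPDL1 in both lines. MAD2L1, the protein that inhibits CDC20, had 252 against 171 CPM in CHLA9 and 251 against 223 CPM in TC71, within 1.5-fold.

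In the anaphase-promoting complex most core subunits stayed level. Of 18 measured genes 4 were higher in CHLA9 (CDC27, FZR1, UBE2C and UBE2S) and 3 of 17 in TC71 (CDC27, FZR1 and UBE2C), with medians of 0.06 and 0.04. FZR1, the activator that takes over from CDC20 at mitotic exit, had 50.3 against 18.7 CPM in CHLA9 and 21.4 against 10.6 CPM in TC71. FBXO5 (EMI1), which inhibits the complex before mitosis, was lower in CHLA9 at 57.5 against 103 CPM and had 101 against 118 CPM in TC71. RAD21, the cleavable cohesin subunit, was at 0.70 and 0.57, and 6 of 17 genes of cohesin and its regulators were higher in CHLA9 and 4 of 17 in TC71. SGO2, a protector of centromeric cohesin, had 326 against 87.0 CPM in CHLA9 and 290 against 88.5 CPM in TC71. PTTG1 (securin) was higher in CHLA9, at 294 against 158 CPM, and had 219 against 197 CPM in TC71, a log2 ratio of 0.16 (0.08 to 0.23).

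Most regulators of mitotic entry were higher. Of 17 measured genes 10 were higher and 2 lower in CHLA9, and 11 were higher and 2 lower in TC71. CDK1, the entry kinase, had 313 against 117 CPM in CHLA9 and 345 against 135 CPM in TC71. CCNF, an F-box cyclin, had 118 against 38.7 CPM and 69.0 against 21.8 CPM. The 3 CDC25 phosphatases, which remove inhibitory phosphates from CDKs, did not share a direction: CDC25C was at log2 ratios of 1.54 and 1.32, CDC25B at 1.34 and 0.73, and CDC25A, which also acts at the entry to S phase, at −0.87 and −0.59. PKMYT1, an inhibitory kinase of CDK1, was at −0.88 and −0.66, and its relative WEE1 at 0.36 and 0.66. Of 8 measured cytokinesis genes 5 were higher in each line (ANLN, ECT2, RACGAP1, CIT and CEP55), while RHOA, the GTPase of the cleavage furrow, had 269.8 against 283 CPM and 292 against 292 CPM.

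The transcription factors that drive mitotic genes differed less. In CHLA9 none of 10 measured MuvB, B-MYB, FOXM1 and NF-Y genes passed 1.5-fold, with a median of −0.03, and in TC71 1 of 8 did, LIN54 at 0.61. These counts say little in so short a list. Among all measured genes 3.48% were higher and 2.19% lower in CHLA9, and 3.61% and 0.835% in TC71. FOXM1 had 142 against 94.9 CPM in CHLA9, a log2 ratio of 0.58 (0.53 to 0.64), just under the fold used. In TC71 it had 41.6 against 33.0 CPM, a log2 ratio of 0.33 (0.15 to 0.51). MYBL2 (B-MYB) was at −0.22 and −0.21.

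Many messages of G1/S and replication were lower. Of 56 measured genes in CHLA9 none was higher and 35 were lower, with a median log2 ratio of −0.90, and of 55 in TC71 none was higher and 24 were lower, with a median of −0.45. CCNE2, the cyclin of S-phase entry, was the lowest of the list, with 2.99 CPM in mitotic and 43.2 CPM in other cells of CHLA9, a log2 ratio of −3.85 (−4.24 to −3.49). In TC71 it had 7.33 and 45.7 CPM, a log2 ratio of −2.64 (−3.06 to −2.25). CDC6, which loads the replicative helicase, had 44.8 against 151 CPM and 15.3 against 39.6 CPM. E2F1 (ENSG00000101412, chr20:33675477-33686385) had 16.3 against 75.3 CPM in CHLA9 and 17.3 against 41.4 CPM in TC71. The helicase genes MCM3, MCM4, MCM5 and MCM6 were lower in both lines, from −1.26 to −1.98 in CHLA9 and from −0.72 to −1.15 in TC71, and MCM7 was at −0.52 and −0.32. TYMS, RRM1 and RRM2, enzymes of nucleotide supply, stayed within 1.5-fold, at −0.07, −0.09 and −0.24 in CHLA9 and −0.10, 0.03 and −0.02 in TC71. FAM111B and WDR76, outside the list, were also among the 10 lowest genes, FAM111B with 12.5 against 91.9 CPM in CHLA9 and 12.9 against 36.9 CPM in TC71.

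Replication-dependent histones were lower as well. Most of these messages lack the poly(A) tail that the library chemistry captures, so the counts reflect the captured part, and near-identical copies can share reads. Of 70 such genes 10 were measured in CHLA9, of which 9 were lower and none higher, and 16 in TC71, of which 11 were lower and none higher, with medians of −1.23 and −1.64. HIST1H4C had 613 against 1685 CPM in CHLA9 and 426 against 1387 CPM in TC71. The linker histone HIST1H1D had 37.5 against 137 CPM in CHLA9, and 1.52 against 33.1 CPM in TC71, the last from 11 UMIs in the mitotic cells.

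**Figure D3:**
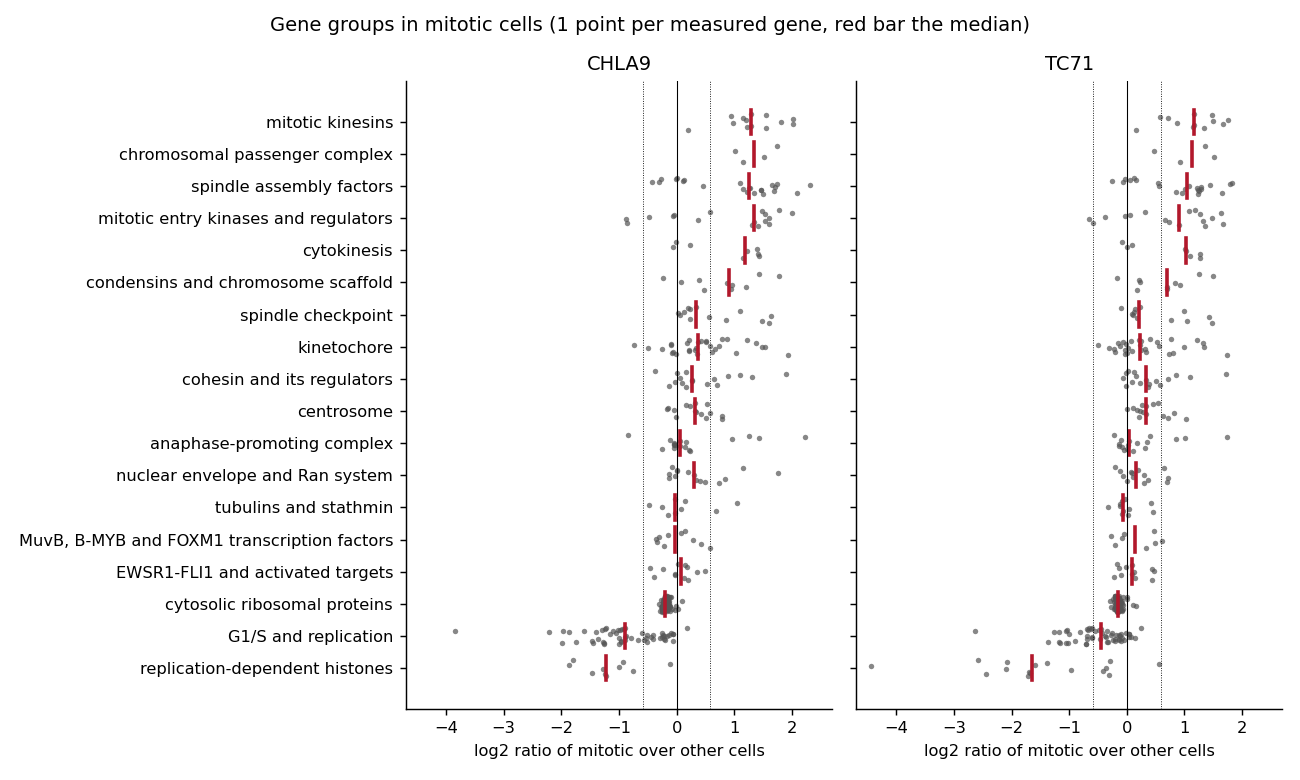
Log2 ratio of mitotic over other cells for each measured gene (grey points) of 18 gene groups in CHLA9 and TC71, with the group median as a red bar and dotted lines at 1.5-fold. Kinesin medians are 1.28 and 1.17, the anaphase-promoting complex has medians of 0.06 and 0.04 with a few genes far to the right, and histone medians are −1.23 and −1.64.

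Other programs had few genes past 1.5-fold. None of 12 measured EWSR1-FLI1 genes and activated targets passed 1.5-fold in either line, with medians of 0.08 and 0.09. The summed level of the whole list was at log2 ratios of −0.15 in CHLA9 and −0.07 in TC71. Of all measured genes only 3.48% were higher and 2.19% lower in CHLA9, and 3.61% and 0.835% in TC71. A short list without such a gene, or with only 1, here or below, thus says little about the list. EWSR1 had 166 against 152 CPM in CHLA9 and 110 against 99.4 CPM in TC71, and FLI1, whose 3′ part lies in the fusion, had 43.2 against 37.5 CPM and 29.7 against 22.0 CPM. These counts do not separate the fusion from the normal alleles. None of the measured mesenchymal genes passed 1.5-fold, 10 in CHLA9 and 12 in TC71. None of 78 measured cytosolic ribosomal protein genes did in either line: their median log2 ratio was −0.20 and −0.16 relative to the total, and 0.03 and 0.19 when UMIs were counted per cell, so that its sign depends on the scale. Of the Fanconi and recombination genes 1 of 14 was lower in CHLA9, FANCA, at 24.9 against 38.6 CPM, and none of 14 passed 1.5-fold in TC71, where FANCA had 25.6 against 37.0 CPM. FANCD2 and FANCI were within 1.5-fold at 0.28 and 0.20 in CHLA9 and 0.27 and 0.21 in TC71. FEN1, the flap endonuclease of lagging-strand synthesis, was lower in both lines, at 61.4 against 136 CPM and 72.3 against 145 CPM.

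Centrosome and nuclear envelope genes were higher in part. Of 15 measured centrosome genes 3 were higher in CHLA9 (PCNT, CDK5RAP2 and STIL) and 4 in TC71 (these and CEP192), with medians of 0.33 and 0.33. PCNT, a scaffold of the pericentriolar material, had 122 against 70.9 CPM in CHLA9 and 58.9 against 28.9 CPM in TC71. PLK4, the kinase that starts centriole duplication, stayed within 1.5-fold at 0.43 and 0.33. In the nuclear envelope and Ran system 4 of 15 genes were higher in CHLA9 (LMNA, LBR, SUN2 and RANGAP1) and 3 of 14 in TC71 (LMNB1, LBR and RANGAP1), and none was lower. RANGAP1, which activates the GTPase of Ran and sits at kinetochores in mitosis, was at log2 ratios of 1.15 and 0.64. LBR, the lamin B receptor, was at 0.84 and 0.72. SUN2, of the inner nuclear membrane, had 57.6 against 17.1 CPM in CHLA9, and 17.3 against 5.01 CPM in TC71, where it was under the limit for a measured gene.

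Among genes that hold back or start the G1 phase, a few were past 1.5-fold. Of the CDK inhibitors and p53 targets 3 of 10 were higher in CHLA9 (CDKN1B, CDKN2C and CCNG2), 1 of 8 in TC71 (CDKN1B), and none was lower. CDKN1B (p27) had 43.5 against 22.0 CPM in CHLA9 and 52.4 against 28.5 CPM in TC71. CDKN2C (p18), an inhibitor of CDK4 and CDK6, had 111 against 57.6 CPM in CHLA9, and in TC71, at 63.9 against 42.7 CPM, it was just under 1.5-fold. Of 9 measured G1 cyclins, RB family and MYC genes CCND3 was lower in CHLA9, at −0.70, and CDK6 was higher in TC71, at 0.69. CCND1, the G1 cyclin, was at 0.04 and 0.05.

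Of the chaperones 2 of 12 were higher in CHLA9 (HSPA1A and DNAJB1) and 3 of 13 in TC71 (these and HSPA1B). HSPA1A, an inducible chaperone, had 58.4 against 29.0 CPM in CHLA9 and 112 against 54.6 CPM in TC71, and its near-identical copy HSPA1B can share its reads. DNAJB1, its cochaperone, was at 0.68 and 0.71. None of 7 measured immediate early genes passed 1.5-fold in either line. MALAT1, a nuclear long noncoding RNA, had 26270 against 15578 CPM in CHLA9 and 11672 against 6536 CPM in TC71, while NEAT1 and KCNQ1OT1 stayed within 1.5-fold. Of the glycolysis genes 1 of 11, the glucose transporter gene SLC2A1 at −0.87, was lower in CHLA9 and none of 12 passed 1.5-fold in TC71. Of the amino acid stress genes none of 5 passed it in CHLA9 and 1 of 8, SLC7A11 at 0.69, was higher in TC71. None of the 13 mitochondrially encoded genes passed 1.5-fold, with medians of −0.12 and −0.04.

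The lines differed in the size of some ratios. Of the 7487 genes measured in both lines, 1363 had counting intervals that did not overlap between the lines. The intervals hold counting error alone, so this is not a count of established line differences. Among the 1363, HIST1H1D, HIST1H1E, UBE2S, NOL6 and EMC9 had the largest excess of the ratio in CHLA9. FAM111B, CCNE2, E2F7, SLFN5 and GCLC had the largest excess in TC71. For HIST1H1D, HIST1H1E, NOL6, FAM111B, CCNE2 and E2F7 the log2 ratio was negative in both lines, so the excess is a smaller fall. UBE2S, which elongates ubiquitin chains for the anaphase-promoting complex, had 1220 against 513 CPM in CHLA9, a log2 ratio of 1.25 (1.23 to 1.27). In TC71 it had 840.5 against 638 CPM, a log2 ratio of 0.40 (0.36 to 0.44). E2F7, an atypical repressor of E2F targets, was at −1.44 (−1.73 to −1.16) in CHLA9 and at −0.23 (−0.49 to 0.02) in TC71. Line, medium, library and sequencing cannot be told apart with 1 library for each line.

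Levels of the second mitotic list went up along the whole order of the score. The kept cells were ordered by the score of the rule and divided into 10 steps of near-equal size, the last being the mitotic cells. The second mitotic list was at 193 CPM in step 1 of CHLA9, 802 in step 5, 2677 in step 9 and 3669 in step 10. In TC71 it was at 440.2, 843, 2177 and 2752 CPM. Thus the step below the mitotic cells was closer to them than to the middle of the order in both lines. PIF1 had 6.21 CPM in step 5, 121 in step 9 and 161 in step 10 of CHLA9, and AURKB, the kinase of the passenger complex, 90.6, 193 and 219 CPM. Histones followed another course. In CHLA9 they were at 624 CPM in step 1, 3684 in step 6 and 949 in step 10, so that low histone levels stood at both ends of the order. In TC71 the highest value was 2562 CPM in step 3, with 1991 CPM in step 1 and 652 CPM in step 10. G1/S and replication genes were highest at 8808 CPM in step 4 of CHLA9 and 6398 CPM in step 2 of TC71, and were at 4327 and 4070 CPM in step 10. Because the order was made from mitotic genes of the same cells, these values are a description.

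**Figure D4:**
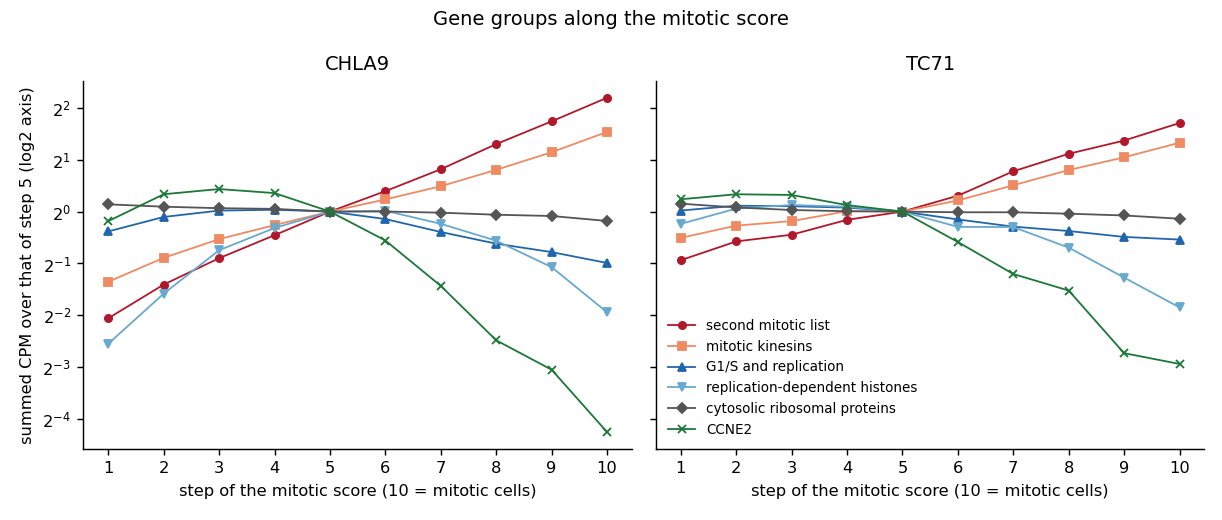
Summed CPM of gene groups and of CCNE2 in 10 steps of the mitotic score, each divided by its value in step 5, on a log2 axis, for CHLA9 and TC71. The second mitotic list climbs from 193 to 3669 CPM in CHLA9 and from 440.2 to 2752 CPM in TC71, histones peak in step 6 and step 3, and CCNE2 goes down to 2.99 and 7.33 CPM.

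The mitotic cells were not uniform in depth. When they were divided at the median UMIs of the other cells, 27.2% fell below it in CHLA9 and 23.1% (40 cells) in TC71, and the upper cells had 1.71 and 1.75 times the median UMIs of the lower. This division was chosen after the UMIs were seen. The score differed little, with medians of 6413 CPM in the lower and 6687 CPM in the upper cells of CHLA9 and 3447 and 3561 CPM in TC71. CCNB1 had 899 CPM in the lower and 805 CPM in the upper mitotic cells of CHLA9, and 573 and 482 CPM in TC71. CDK1, the partner of CCNB1, had 98.6 against 357 CPM in CHLA9, a log2 ratio of −1.86 (−2.02 to −1.70), and 195 against 367 CPM in TC71, at −0.91 (−1.14 to −0.69). PIF1 had 33.5 against 188 CPM in CHLA9 and 48.5 against 99.2 CPM in TC71. FBXO5 had 18.5 against 65.7 CPM in CHLA9 and 74.4 against 105 CPM in TC71. In both lines the low-UMI mitotic cells were thus lower in CDK1 and PIF1 and within 1.5-fold of the upper cells in CCNB1.

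The same division in other cells gave some of these differences too. In other cells CDK1 was at −1.72 in CHLA9 and −1.07 in TC71 for cells below against cells at or above that median, and PIF1 at −3.18 and −1.52. TOP2A was at −1.22 and −0.51 in other cells, and at −0.59 and −0.09 in mitotic cells. FBXO5 was at −0.87 and −0.53 in other cells, and at −1.83 and −0.49 in mitotic cells. HIST1H4C was at −1.62 in the mitotic cells of CHLA9 (−1.72 to −1.51) and at 0.17 (0.03 to 0.32) in those of TC71, intervals that do not overlap. HSPA5, an endoplasmic reticulum chaperone, was at 0.61 and 0.50 for low-UMI over upper mitotic cells, and at 0.24 and 0.03 in other cells. Compared at the same side of the division, PIF1 was higher in mitotic than in other cells in both lines: in CHLA9 it had 33.5 against 5.72 CPM in the low-UMI cells and 188 against 51.9 CPM in the upper cells, and in TC71 48.5 against 13.4 CPM and 99.2 against 38.6 CPM. Set against other cells of all depths, the low-UMI mitotic cells of CHLA9 had a PIF1 log2 ratio of −0.057.

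**Figure D5:**
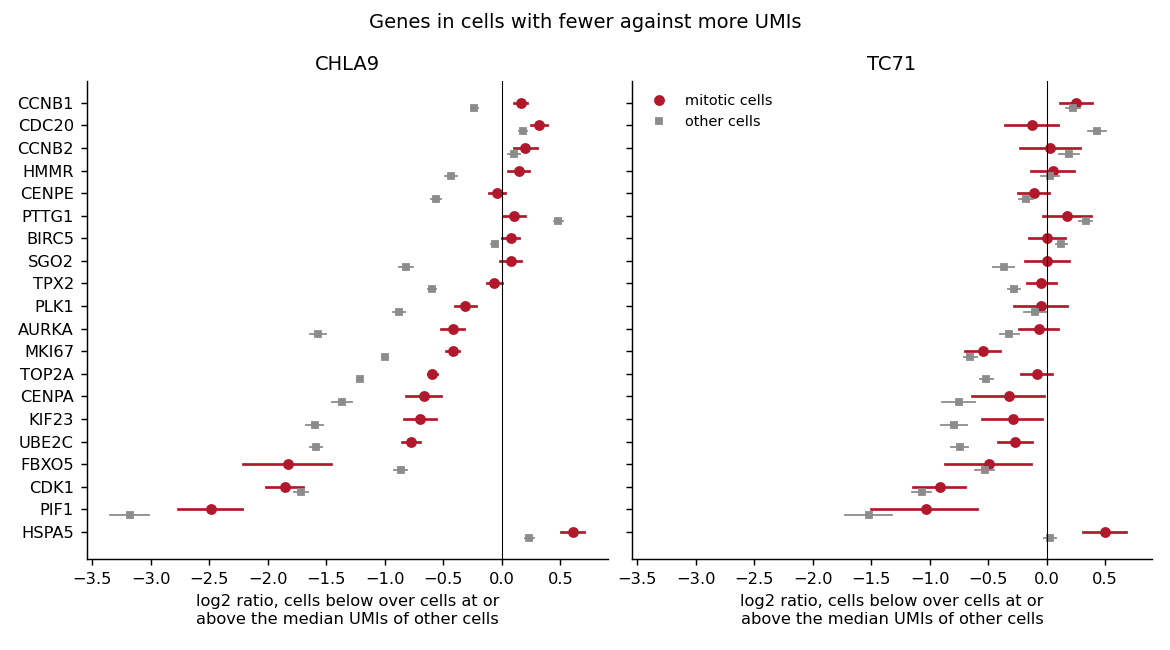
Log2 ratio of cells below the median UMIs of other cells over cells at or above it, in mitotic cells (red) and in other cells (grey), with exact 95% counting intervals as bars. CDK1 lies at −1.86 and −0.91 and PIF1 at −2.49 and −1.03 in mitotic cells, while CCNB1 lies at 0.16 and 0.25.

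The promoter windows of the genes were compared with the motifs shown above. A window of 300 bases, from 250 before to 50 after the first listed RefSeq start, was found for 147 of the 172 genes higher in both lines, 38 of the 47 lower in both, and 6236 of the 7487 measured in both. CHR letters stood in 69 windows of the higher genes (46.9%), in 2 of the lower genes (5.26%) and in 11.6% of the windows of measured genes. Over the 27305 genes with a window the share was 16.6%. CCAAT letters stood in 59.9%, 68.4% and 38.6% of the higher, lower and measured windows and in 35.7% of the 27305. E2F letters stood in 6.12%, 36.8% and 6.46%, and in 3.33%. CHR and CCAAT letters stood together in 38.1% of the windows of higher genes, 5.26% of those of lower genes and 5.39% of those of measured genes. Of the 15 highest genes 9 of 14 with a window held CHR letters, and KIF20A, GAS2L3, SGO2, ARL6IP1 and NEK2 held none. UBE2C and AURKA have no entry in the table. The groups were chosen by these counts, so the shares describe them and carry no test.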

How the data were processed

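The measurements were UMI counts per gene and cell from 10x Chromium 3′ libraries, 1 for CHLA9 and 1 for TC71. The deposited values are raw counts over 33538 genes, which the authors made with Cell Ranger 3.1.0 on hg38. CHLA9 was sequenced on a HiSeq and again on a NovaSeq and TC71 on a HiSeq, so that sequencing differs with the line. Median UMIs of the other kept cells were close, at 34062 in CHLA9 and 32709 in TC71. Groups came from the labels, no cell annotation was used, and 0 columns were set aside. The filters on cells were a minimum of 5000 UMIs, a minimum of 2000 detected genes and a mitochondrial share of up to 15%, and no doublet caller was run. UMIs of each gene were summed over mitotic and over other kept cells of a library and divided by their totals (CPM). Log2 ratios carry exact 95% binomial intervals and levels exact Poisson intervals, for counting error only. With 1 library for each line there is no SD and no test across libraries. Genes with at least 10 CPM over the kept cells of a line were counted past 1.5-fold, without the 8 rule genes.

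The cells, gene lists and named genes were chosen with earlier results of these data known. Named were the rule genes, the 15 genes highest and the 10 lowest in both lines, the 5 differing most between lines in each direction with intervals apart, up to 4 extreme members of each list with members a sentence needed, and EWSR1, FLI1, FEN1, FANCA, FANCD2 and FANCI. The second mitotic list overlaps other lists. GAS5 and SNHG1 matched no gene. In all 21 alternatives were planned and 2 added after seeing the data, besides the division of mitotic cells by UMIs. Thinning to 5000 UMIs used seed 1. Gene positions are from GENCODE 44 and promoter sequences from RefSeq on GRCh38.p14, at the first listed start, and 8 of 8 printed stretches equalled hg38. The scripts were tested on simulated data. Tools were Python 3.11.15, numpy 2.4.6, scipy 1.17.1, pandas 2.3.3 and matplotlib 3.10.9.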

Additional observations from a re-analysis of the deposited data

Results flagged for a closer look

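SLFN5, a member of the Schlafen family, had 15.6 CPM in mitotic and 20.4 CPM in other cells of CHLA9, a log2 ratio of −0.39, and 32.5 against 19.5 CPM in TC71, a log2 ratio of 0.74. GCLC, a subunit of the enzyme of glutathione synthesis, had 6.13 against 10.6 CPM in CHLA9, a log2 ratio of −0.79, and 27.2 against 21.6 CPM in TC71, at 0.33. Both genes stood out because their ratios had opposite signs in the lines, with a CHLA9 minus TC71 difference of −1.13 for each. With 1 library for each line the difference was not tested.

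Mitotic messages were also counted in barcodes that no comparison used. The 8 rule genes summed to 2709 CPM over the 553 barcodes of CHLA9 that the filters left out and to 2476 CPM over its kept cells, and to 1365 CPM over 6739 such barcodes of TC71 and 1621 CPM over its kept cells. These values exceed the floor of 3 counts, and mitotic cells among the left-out barcodes, or free RNA in them, were not counted here.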

How the results depend on the processing

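No paired analysis was possible because the series holds 1 library for each line. For the same reason no library could be left out, and the limits below are those of counting and of the choice of cells. In CHLA9, with 452 mitotic cells, 3 UMIs over these cells are 0.150 CPM, and in TC71, with 173, they are 0.415 CPM. As reported, 300 genes were higher and 189 lower in CHLA9 and 294 and 68 in TC71, the UMI ratios were 1.34 and 1.30, and the second mitotic list had medians of 1.62 and 1.45. Against only the cells below the median score, 542 were higher and 327 lower in CHLA9 and 617 and 105 in TC71, with list medians of 2.81 and 2.21. Thinned cells gave 307 lower in CHLA9 and 629 higher and 355 lower in TC71, where the UMI ratio was 1.19 and the list median 1.23. UMIs per cell, which put the median of all genes 0.22 and 0.35 above that of CPM, gave 812 and 96 in CHLA9 and 2230 and 26 in TC71, with list medians of 1.85 and 1.80. The mean CPM per cell gave a list median of 1.74 in CHLA9. With at least 50 CPM fewer genes were measured, and 112 and 58 were past 1.5-fold in CHLA9 and 83 and 22 in TC71. With at least 2 CPM more were measured, and 451 were lower in CHLA9 and 680 higher and 200 lower in TC71. With the top 20% of cells the CHLA9 list median was 1.75 and the TC71 UMI ratio 1.20. That ratio was also 1.20 without the 5% of cells with the most UMIs and 1.18 with a score without CENPF, where the TC71 list median was 1.29. With only the low-UMI mitotic cells, an alternative added after seeing the data, 489 genes were higher and 324 lower in CHLA9 and 790 and 327 in TC71, the list medians were 1.481 and 1.22, and PIF1 in CHLA9 reversed to −0.057. This alternative sets low-UMI mitotic cells against other cells of all depths, and against low-UMI other cells PIF1 did not reverse (33.5 against 5.72 CPM). Where the number of genes measured does not show it, the cause was not tested. Over all settings, 1279 of the named-gene values stayed within the limits set and 464 went past them, as did 1151 and 183 of the list medians.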
